A study of Mus musculus with 6 samples.

Results

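Heat shock proteins are molecular chaperones that fold, refold and sort other proteins, and the data described here are the reads of 10 of their genes, selected by gene symbol in the tables of 6 islet libraries. The tables list 41710 genes. The 10 members were Hspa8, Hsp90ab1, Dnaja1, Hspd1 and Hspe1, which cells transcribe without stress and which are called constitutive below, and Hsp90aa1, Hsph1, Dnajb1, Hspa1a and Hspa1b, which heat and other protein-damaging stress induce and which are called inducible. The libraries came from islets of 3 Trpm7R/R mice, numbered as replicates 4, 6 and 8, and 3 WT mice, numbered 1, 2 and 3, with 1 library per mouse and no pooling. Trpm7R/R mice carry on both alleles a lysine-to-arginine point mutation that inactivates the kinase of TRPM7, a channel fused to a kinase, in every cell of the body. They were bred from heterozygous parents on a C57BL/6 background, with WT littermates as controls. Both genotypes received a high-fat diet with 45% of energy from fat for 16 weeks from 8 weeks of age, and whole islets, a mixture of endocrine and other cells, were kept in culture medium with serum before lysis.

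HSP70 proteins such as the product of Hspa8 bind short hydrophobic stretches of unfolded proteins in cycles of ATP hydrolysis, J-domain proteins such as those of Dnaja1 and Dnajb1 start these cycles, and HSP110 proteins such as that of Hsph1 end them by exchanging the nucleotide. HSP90 takes over partly folded clients, among them kinases and steroid receptors, and the mitochondrial pair encoded by Hspd1 and Hspe1 forms a folding chamber with its lid. Heat shock factor 1 trimers raise the inducible genes when unfolded protein accumulates, by binding inverted repeats of the bases GAA, the heat shock element. In beta cells, which make large amounts of secreted protein, most chaperone work on insulin is done in the endoplasmic reticulum (ER) by a separate set of proteins, which was used here only as a comparison.

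The promoters of the members are shown because heat shock factor 1 acts through an element in promoters, of which only exact forms were sought here. RefSeq windows of build GRCm38.p6, from 250 bases before to 50 bases after a transcription start, were matched for 7 of the 10 members in 12 windows. Matches were counted for GAANNTTC or TTCNNGAA, which are 2 inverted units and read the same on both strands, and for the 3-unit form GAANNTTCNNGAA or its reverse complement TTCNNGAANNTTC, which holds the 2-unit form. In the lines below the bases of a match are in capitals. Each line runs 5′ to 3′ on the strand of the gene.
Hspa1a, chr17:34972107-34972406, minus strand: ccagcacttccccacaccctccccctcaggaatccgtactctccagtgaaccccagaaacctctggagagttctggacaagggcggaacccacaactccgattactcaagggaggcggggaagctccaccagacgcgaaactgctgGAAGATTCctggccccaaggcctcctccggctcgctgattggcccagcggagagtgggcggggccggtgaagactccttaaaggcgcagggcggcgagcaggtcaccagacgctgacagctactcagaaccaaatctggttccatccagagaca
Hspa1b, chr17:34959189-34959488, minus strand: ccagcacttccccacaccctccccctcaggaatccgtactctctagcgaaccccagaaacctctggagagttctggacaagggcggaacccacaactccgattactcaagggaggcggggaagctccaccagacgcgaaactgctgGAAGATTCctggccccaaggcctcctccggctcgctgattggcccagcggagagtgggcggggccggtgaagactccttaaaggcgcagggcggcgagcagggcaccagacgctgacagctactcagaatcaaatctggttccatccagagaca
Hsph1, chr5:149636287-149636586, minus strand: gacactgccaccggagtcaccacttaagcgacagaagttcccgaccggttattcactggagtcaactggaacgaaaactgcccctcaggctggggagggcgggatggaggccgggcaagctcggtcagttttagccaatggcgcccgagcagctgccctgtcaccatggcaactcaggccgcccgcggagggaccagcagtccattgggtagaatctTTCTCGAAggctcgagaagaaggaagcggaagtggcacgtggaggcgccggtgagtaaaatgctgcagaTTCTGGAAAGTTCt
Hspe1, chr1:55087898-55088197, plus strand: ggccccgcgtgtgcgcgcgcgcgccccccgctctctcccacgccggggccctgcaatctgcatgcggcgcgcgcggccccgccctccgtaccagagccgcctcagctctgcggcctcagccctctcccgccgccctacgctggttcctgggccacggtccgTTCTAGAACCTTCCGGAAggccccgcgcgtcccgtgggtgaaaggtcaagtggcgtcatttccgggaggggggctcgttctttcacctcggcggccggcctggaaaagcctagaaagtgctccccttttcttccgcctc
Dnaja1, chr4:40722218-40722517, plus strand: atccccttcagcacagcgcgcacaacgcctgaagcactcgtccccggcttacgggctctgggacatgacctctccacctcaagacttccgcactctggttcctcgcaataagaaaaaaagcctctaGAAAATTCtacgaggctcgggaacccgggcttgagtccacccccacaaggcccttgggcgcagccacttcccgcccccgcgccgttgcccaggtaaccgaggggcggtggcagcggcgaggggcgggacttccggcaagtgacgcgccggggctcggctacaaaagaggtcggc

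The 2-unit form was found in 7 of the 12 windows, which belong to 6 of the 7 members, while 15.1% of 32851 mouse promoter windows hold it. The 3-unit form was found in 4 of the 12 windows, those of Hspd1, Hspe1 and Hsph1, and in 0.603% of all windows, so that it occurred in constitutive as well as inducible members. The windows of Hspa1a and Hspa1b differed at 4 of 300 positions, C44T, T47C, T249G and C276T, counted from 1 at the 5′ end with the base of Hspa1a given first. Their match lay at position -104 from the start site in both. Hspd1 and Hspe1 are transcribed away from each other from a shared promoter, and 285 bases of a window of Hspd1 were also in that of Hspe1, so their matches are the same bases and the windows are not independent. Both windows of Hsph1 overlap as well and hold the same matches. The counts of windows are thus larger than those of separate sites, and the shares of all windows are no measure of enrichment. The windows of Dnajb1 held no exact match. Forms that depart from the letters given above were not counted, so a window without a match is not shown to lack the element. These matches describe letters and say nothing of binding in islets.

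The libraries set narrow limits on all values below. They rested on 17213285 to 20307909 mapped reads in Trpm7R/R and 18226053 to 18825699 in WT. Exons held 1491796 to 1792254 reads in Trpm7R/R and 1312128 to 2135466 in WT. Introns held 78.4 to 83.5% of gene reads in Trpm7R/R and 75.7 to 84.2% in WT, and predicted genes with names of the form Gm held 61.3 to 69.3% of exon reads in Trpm7R/R and 53.4 to 71.2% in WT. Exon-exon reads, which span a splice junction and so come from spliced RNA, numbered 8518, 5873 and 9985 for nuclear protein-coding genes other than predicted ones in Trpm7R/R replicates 4, 6 and 8, against 29343, 35040 and 16558 in WT replicates 1, 2 and 3, without overlap. Trpm7R/R replicates 6 and 8 had intron reads of Y-linked genes at 0.0480 and 0.0344 times the autosomal density, against 0.415 in Trpm7R/R replicate 4 and 0.505 to 0.575 in WT, so the genotypes are not balanced for sex chromosomes. The endocrine markers of islets were present in every library, and all 10 were lower in Trpm7R/R by fold change, with a median log2 fold change of -2.01, and their summed CPM, exon reads scaled to a common library total, was 351 to 755 in Trpm7R/R and 1178 to 2813 in WT. In bulk RNA fewer cells of a type and less RNA per cell cannot be told apart. Trpm7 itself had 35, 76 and 85 exon reads in Trpm7R/R and 97, 65 and 53 in WT, and as a point mutation leaves its transcript in place this is no check of genotype.

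The exon reads of 3 members lay at 3.20 times the intronic background or more in every library, and each had lower exon read counts in Trpm7R/R islets, by 2.20-fold for Hspa8, 2.66-fold for Hsp90aa1 and 2.99-fold for Hsp90ab1 under TMM scaling, which equalizes libraries on the bulk of all genes. None of these differences passed an adjusted p of 0.05 in edgeR's quasi-likelihood test. The other constitutive members, Dnaja1, Hspd1 and Hspe1, lay at 0.276 to 4.27 times the background, and the inducible members Hsph1, Dnajb1, Hspa1a and Hspa1b were below it in all 6 libraries. Among spliced reads alone, the log2 fold changes of the 3 abundant members lay between -0.23 and 0.36. These values are relative to the other spliced genes, whose summed reads were fewer in every Trpm7R/R library than in any WT library. Before scaling, the spliced reads of all 3 members were fewer in Trpm7R/R too.

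Hspa8 encodes HSC70, the constitutive cytosolic HSP70. It had 69, 62 and 82 exon reads in Trpm7R/R replicates 4, 6 and 8, against 177, 178 and 128 in WT replicates 1, 2 and 3, and the genotypes did not overlap. The normalized count, which is the read count after TMM scaling, averaged 71.8 ± 4.95 in Trpm7R/R and 158 ± 25.4 in WT (SD, n = 3 each), a log2 fold change of -1.14 ± 0.28 (SE) with an adjusted p of 0.135 by edgeR's quasi-likelihood test. Of the 3 abundant members this was the one with the least spread between mice of a genotype.

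Hsp90ab1 encodes the constitutive cytosolic HSP90. It had 115, 36 and 57 exon reads in Trpm7R/R, against 98, 394 and 148 in WT. The groups overlapped, since Trpm7R/R replicate 4 lay above WT replicate 1, and WT replicate 2 was far above the other libraries. Normalized counts averaged 69.2 ± 38.5 in Trpm7R/R and 208 ± 149 in WT (SD, n = 3 each), and the log2 fold change was -1.58 ± 0.49 (SE) with an adjusted p of 0.310 by edgeR's quasi-likelihood test. Without WT replicate 2 the log2 fold change was -0.79.

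Hsp90aa1 encodes the inducible cytosolic HSP90, which many unstressed tissues also transcribe. It was the member with the most exon reads in every library, with 210, 131 and 172 reads in Trpm7R/R and 323, 764 and 325 in WT. No Trpm7R/R library reached the lowest WT library. Normalized counts averaged 172 ± 30.2 in Trpm7R/R and 459 ± 235 in WT (SD, n = 3 each), a log2 fold change of -1.41 ± 0.35 (SE) with an adjusted p of 0.139 by edgeR's quasi-likelihood test. WT replicate 2 was again the highest library, and without it the log2 fold change was -0.86.

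Dnaja1 and Hspd1 overlapped between genotypes. Dnaja1, a J-domain partner of HSC70, had 44, 93 and 103 exon reads in Trpm7R/R and 92, 66 and 65 in WT, with a log2 fold change of 0.16 ± 0.36 (SE). Hspd1, the mitochondrial chaperonin HSP60, had 47, 23 and 17 exon reads in Trpm7R/R and 34, 49 and 30 in WT, with a log2 fold change of -0.33 ± 0.41 (SE). Hspe1, the lid of that chaperonin, had 8, 7 and 2 exon reads in Trpm7R/R and 20, 11 and 9 in WT. Total reads of Hspe1 did not overlap between genotypes, but uniquely mapped ones did, with 8, 6 and 2 in Trpm7R/R and 14, 9 and 7 in WT. It did not pass the filter on low counts, and without that filter its log2 fold change was -1.10 ± 0.58 (SE) with an adjusted p of 0.917 by edgeR's quasi-likelihood test. The adjusted p of Dnaja1 and of Hspd1 was 1.00 in edgeR's quasi-likelihood test.

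The remaining inducible members were barely detected. Hsph1 had 12, 13 and 8 exon reads in Trpm7R/R and 15, 19 and 17 in WT, which did not overlap after scaling (log2 fold change -0.56 ± 0.43 (SE), adjusted p 1.00 by edgeR's quasi-likelihood test). Dnajb1 had 5, 0 and 1 exon reads in Trpm7R/R and 3, 3 and 6 in WT. The stress-inducible HSP70 genes are strongly induced by heat in mouse cells. Hspa1a had 0, 0 and 1 exon reads in Trpm7R/R and 1, 4 and 6 in WT, and Hspa1b 0, 2 and 1 in Trpm7R/R and 1, 0 and 5 in WT. These 3 genes did not pass the filter on low counts. Without that filter, in edgeR's quasi-likelihood test over all genes with at least 1 read, the fitted log2 fold change of Hspa1a was -2.94 ± 1.30 (SE), with an unadjusted p of 0.025 and an adjusted p of 0.703, a fit that rests on 1 read in Trpm7R/R and 11 in WT. The adjusted p was 0.983 for Hspa1b and 0.938 for Dnajb1 in that edgeR fit.

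**Figure D1:**
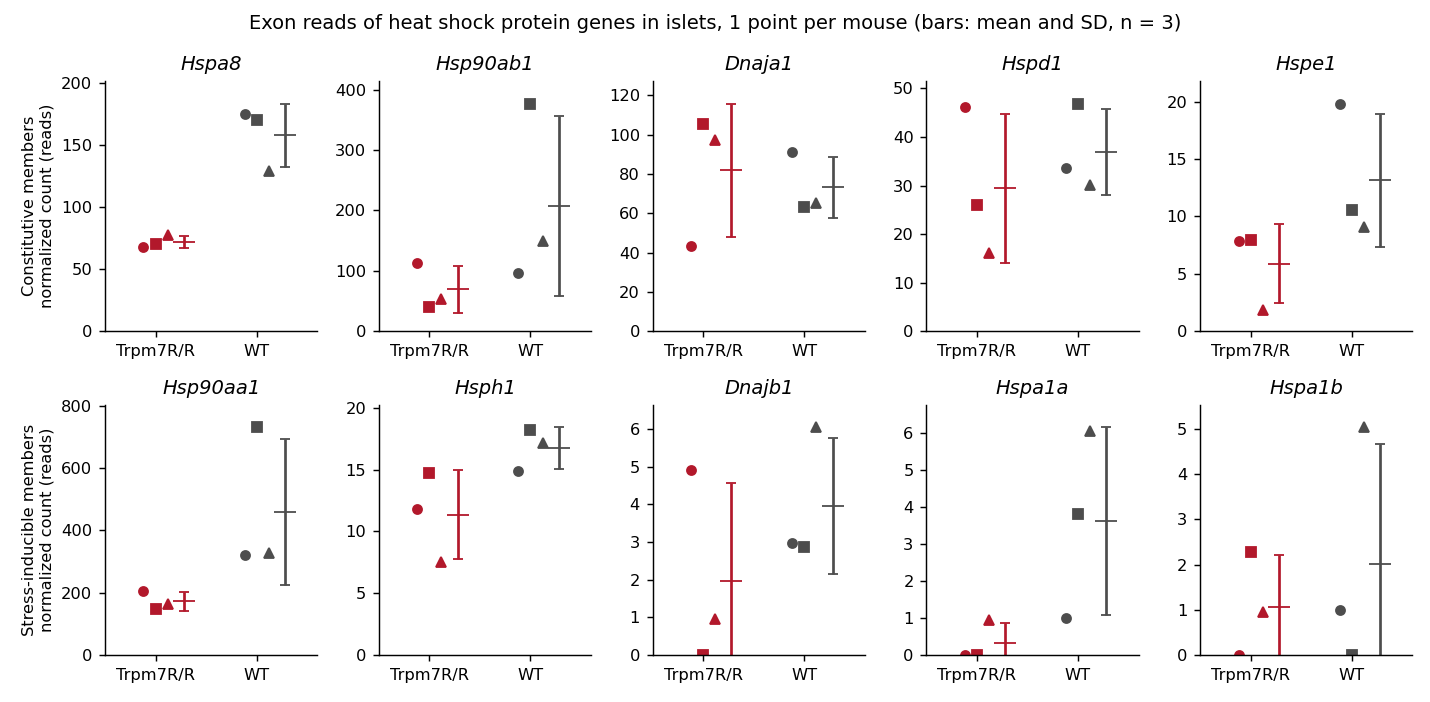
Normalized counts of exon reads (y axis, reads after TMM scaling, a separate scale in each panel) for the 5 constitutive members in the upper row and the 5 inducible members in the lower row, with Trpm7R/R mice left of WT mice, 1 point per mouse, circles, squares and triangles for replicates 4, 6 and 8 or 1, 2 and 3, and the mean with its SD to the right of the points (bars are drawn from 0 upward). Hspa8 shows 3 Trpm7R/R points at 67.8 to 77.3, below the WT points at 129 to 175, whereas Hsp90ab1, Dnaja1 and Hspd1 overlap and Hspa1a, Hspa1b and Dnajb1 stay at a few reads.

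Among the 10 members 6 passed the filter on low counts, and 0 of these passed an adjusted p of 0.05, where 0.0257% of the 11674 genes tested passed it. At an unadjusted p under 0.05, 3 members were lower (Hspa8, Hsp90aa1 and Hsp90ab1) and 0 higher, against 4.57% of all genes tested that were lower and 1.14% that were higher, a share that was far larger among abundant spliced genes, as given below. Every Trpm7R/R library lay below every WT library for 3 tested members, Hspa8, Hsp90aa1 and Hsph1, and for 6.84% of all genes, and the reverse held for 0 tested members and 3.64% of all genes. For Hsph1 the margin was narrow, a highest Trpm7R/R normalized count of 14.7 against a lowest WT one of 14.9. With DESeq2 size factors the number of such members was 2. The median log2 fold change was -0.73 over the 4 constitutive and -0.99 over the 2 inducible members that passed the filter, and 0.0055 over all genes. Within each class the abundant members had the lower values, -1.58 and -1.14 against -0.33 and 0.16 among constitutive and -1.41 against -0.56 among inducible members.

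A background was measured in each library as the median density of intron reads over 5181 autosomal genes whose introns summed to 50000 bases or more. The density of exon reads of each member was divided by it. Hsp90aa1 reached 9.71 ± 1.40 times the background in Trpm7R/R and 27.3 ± 15.1 in WT, Hsp90ab1 5.07 ± 2.68 in Trpm7R/R and 16.3 ± 12.3 in WT, and Hspa8 3.71 ± 0.27 in Trpm7R/R and 8.46 ± 1.40 in WT (SD, n = 3 each). Against the exons of olfactory and vomeronasal receptor genes, which islets should lack, the ratios were lower in most libraries, at 8.34, 1.69 and 2.19 for Hsp90ab1 and 3.49, 2.02 and 2.20 for Hspa8 in Trpm7R/R replicates 4, 6 and 8. In WT they were 3.88 to 21.4 for Hsp90ab1 and 4.88 to 6.74 for Hspa8. Hspd1 had 2.47 ± 1.24 times the intronic background in Trpm7R/R and 3.23 ± 0.90 in WT, and Dnaja1 2.13 ± 0.93 in Trpm7R/R and 1.94 ± 0.33 in WT (SD, n = 3 each), and in Trpm7R/R replicate 4 Hspd1, at 3.77 times, was above Hspa8, at 3.40 times. Hspe1 lay on either side of it, at 0.276 to 1.27 times in Trpm7R/R and 1.41 to 2.96 times in WT.

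The other inducible members were under the background throughout. An exon stretch as long as that of Hspa1a would have collected 11.1 to 14.6 reads in Trpm7R/R and 12.8 to 13.6 in WT at the intronic density, whereas at most 1 was observed in Trpm7R/R and at most 6 in WT. Hsph1 had 0.224 to 0.477 times the background in Trpm7R/R and 0.450 to 0.602 times in WT. A count of 0 for Hspa1a in a library allows up to 3 reads, or 0.214 times the background in Trpm7R/R replicate 4 and 0.270 times in Trpm7R/R replicate 6, counting error only. The reads of the inducible HSP70 genes thus gave no level above that of introns in either genotype. Why their exons lay under the intronic density was not tested.

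**Figure D2:**
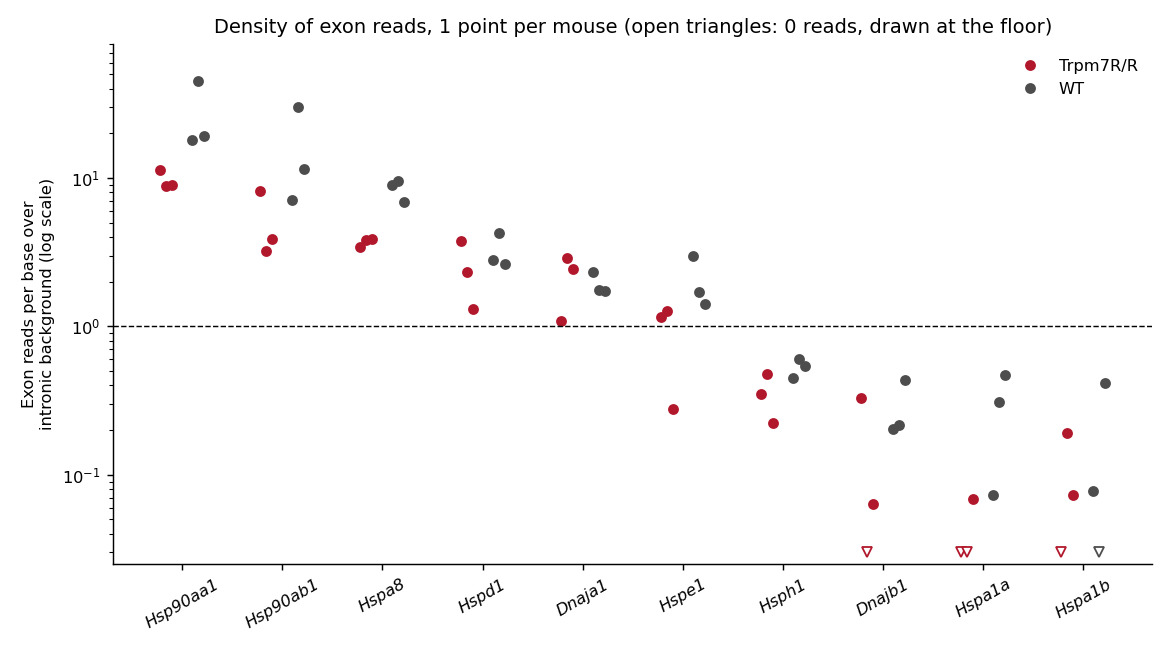
Density of exon reads of each member over the intronic background of its library (y axis, ratio on a log scale, dashed line at a ratio of 1), with Trpm7R/R points left of WT points, 1 point per mouse, and libraries with 0 reads as open triangles at the lower edge. Hsp90aa1, Hsp90ab1 and Hspa8 lie above 3 in all libraries and Hsph1, Dnajb1, Hspa1a and Hspa1b below 1 in all libraries.

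Spliced reads of the abundant members were counted apart from other exon reads. Hsp90aa1 had 77, 60 and 82 exon-exon reads in Trpm7R/R and 156, 385 and 157 in WT, Hsp90ab1 had 45, 22 and 24 in Trpm7R/R and 47, 230 and 72 in WT, and Hspa8 had 14, 19 and 17 in Trpm7R/R and 51, 39 and 22 in WT. They were fewer in Trpm7R/R, as were the spliced reads of all nuclear protein-coding genes. Per 10000 spliced reads of nuclear protein-coding genes, Hsp90aa1 had 90.4, 102 and 82.1 in Trpm7R/R and 53.2, 110 and 94.8 in WT, which overlapped. Hsp90ab1 had 52.8, 37.5 and 24.0 per 10000 in Trpm7R/R and 16.0, 65.6 and 43.5 in WT, and Hspa8 16.4, 32.4 and 17.0 in Trpm7R/R and 17.4, 11.1 and 13.3 in WT. The genotypes overlapped for all 3 genes.

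In edgeR's quasi-likelihood test of exon-exon reads, which had enough reads for 181 genes, the log2 fold change was -0.045 ± 0.36 (SE) for Hsp90aa1 (adjusted p 0.976), -0.23 ± 0.45 for Hsp90ab1 (adjusted p 0.856) and 0.36 ± 0.47 for Hspa8 (adjusted p 0.729). In that fit 59.7% of genes had a negative value and the median was -0.11. At an unadjusted p under 0.05, 6.08% were lower and 16.0% higher. These values are relative to the other spliced genes, whose summed reads were themselves fewer in Trpm7R/R. Hsp90aa1 ranked 9, 4 and 6 by exon-exon reads among 20561 nuclear protein-coding genes in Trpm7R/R and 6, 7 and 7 in WT. It was thus among the most frequent spliced transcripts of each library, a rank that does not account for transcript length or number of junctions.

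The other members had few spliced reads. Dnaja1 had 8, 5 and 4 in Trpm7R/R and 10, 5 and 7 in WT, and Hspd1 9, 2 and 3 in Trpm7R/R and 7, 1 and 3 in WT. Hspe1 had 3, 2 and 1 in Trpm7R/R and 8, 5 and 3 in WT. Hsph1 had at most 1 in any library, and Dnajb1 had 0 in all 6. Hspa1a and Hspa1b have no intron in the tables and can give no such reads.

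Intron reads were measured for the same genes as a readout of unspliced RNA or genomic DNA, which the counts do not separate. Hspa8 had 11, 4 and 5 intron reads in Trpm7R/R and 14, 8 and 12 in WT, a log2 fold change of -0.79 ± 0.52 (SE). Those of Hsp90aa1 numbered 37, 21 and 24 in Trpm7R/R and 17, 25 and 36 in WT, a log2 fold change of 0.043 ± 0.39 (SE). Hsp90ab1 had 11, 12 and 9 intron reads in Trpm7R/R and 7, 5 and 8 in WT. These raw counts were higher in every Trpm7R/R library, unlike its exon reads, but only by 9 against 8 at the nearest. They did not pass the filter on low counts. The share of all genes with such a separation in intron reads was not computed. Dnaja1 (0.38 ± 0.41), Hspd1 (0.15 ± 0.35) and Hsph1 (0.41 ± 0.25) had positive log2 fold changes (SE), and all 5 genes tested had an adjusted p of 1.00 by edgeR's quasi-likelihood test, in which 0.989% of 20921 genes had lower and 0.884% higher intron reads at an unadjusted p under 0.05. Hsph1 had more reads in introns, 84, 57 and 80 in Trpm7R/R and 61, 44 and 58 in WT, than in exons in every library, and its introns lay at 1.03 to 1.20 times the background in Trpm7R/R and 0.683 to 0.904 times in WT. The intron reads of Dnaja1 were high in the libraries in which its exon reads were high, Trpm7R/R replicates 6 and 8, with 25, 56 and 65 in Trpm7R/R and 46, 37 and 29 in WT.

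**Figure D3:**
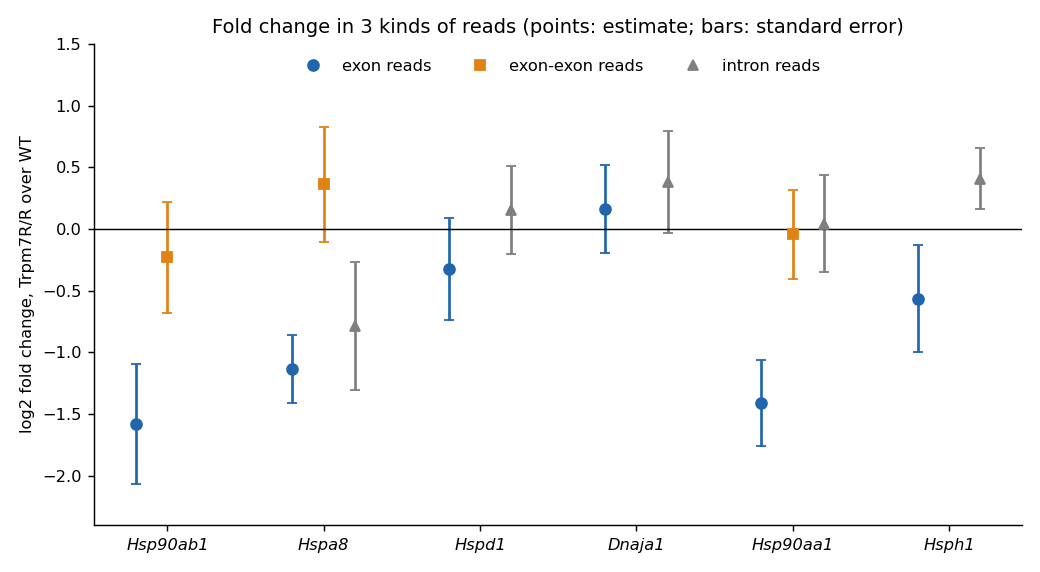
Log2 fold change of Trpm7R/R over WT (y axis, points with standard errors) for the 6 tested members in exon reads (blue circles), exon-exon reads (orange squares) and intron reads (grey triangles), each scaled to its own kind of reads, where a missing point did not pass the filter on low counts. Exon reads of Hsp90ab1, Hspa8 and Hsp90aa1 lie at -1.58, -1.14 and -1.41, while their exon-exon reads lie between -0.23 and 0.36.

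How the members shared the chaperone reads of a library does not depend on scaling. The 10 members had 510, 367 and 444 exon reads in Trpm7R/R and 764, 1488 and 739 in WT. Inducible members held 44.5, 39.8 and 41.2% of them in Trpm7R/R and 44.9, 53.1 and 48.6% in WT, so every Trpm7R/R library was below the lowest WT library, by a margin of 44.5% against 44.9%. Per base of exon the share was 40.6, 41.4 and 44.2% in Trpm7R/R and 43.6, 49.1 and 46.6% in WT, and the genotypes overlapped. The smallest 2-sided p that an exact permutation test can give for 3 against 3 is 0.1, and no test was made. Nearly all inducible reads were those of Hsp90aa1, at 41.2, 35.7 and 38.7% of the members' reads in Trpm7R/R and 42.3, 51.3 and 44.0% in WT. The other 4 inducible genes together held 17, 15 and 11 reads in Trpm7R/R and 20, 26 and 34 in WT.

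Dnaja1, Hspd1 and Hspe1 took a larger share of exon reads in every Trpm7R/R library than in any WT library, though barely so for Trpm7R/R replicate 4. Together they had 19.4, 33.5 and 27.5% of the members' exon reads in Trpm7R/R and 19.1, 8.47 and 14.1% in WT. The 3 abundant genes had 77.3, 62.4 and 70.0% in Trpm7R/R and 78.3, 89.8 and 81.3% in WT. Of the members' exon-exon reads they had 86.6, 91.0 and 93.9% in Trpm7R/R and 90.7, 98.3 and 95.1% in WT. In these spliced reads the genotypes overlapped, so the separation was seen in exon reads only. Per length of exon, the authors' RPKM values put Hsp90aa1 above Hsp90ab1 in all 6 libraries, by 1.39, 2.78 and 2.30 times in Trpm7R/R and 2.51, 1.48 and 1.68 times in WT. The ratio overlapped between genotypes. In mean RPKM the order in Trpm7R/R was Hsp90aa1 (2.38), Hsp90ab1 (1.28), Hspa8 (0.896), Hspd1 (0.615), Dnaja1 (0.498), Hspe1 (0.217) and the 4 rare inducible genes (0.00553 to 0.0839). In WT it was Hsp90aa1 (6.50), Hsp90ab1 (3.87), Hspa8 (2.02), Hspd1 (0.772), Hspe1 (0.487), Dnaja1 (0.465) and the 4 rare inducible genes (0.0385 to 0.127). The ranges of most neighbours among the 6 genes named overlapped. In Trpm7R/R this held for Hsp90aa1 and Hsp90ab1, Hsp90ab1 and Hspa8, Hspa8 and Hspd1, Hspd1 and Dnaja1, and Dnaja1 and Hspe1, and in WT for Hsp90aa1 and Hsp90ab1, Hsp90ab1 and Hspa8, Hspd1 and Hspe1, and Hspe1 and Dnaja1, so the last order in WT is not one beyond the spread.

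**Figure D4:**
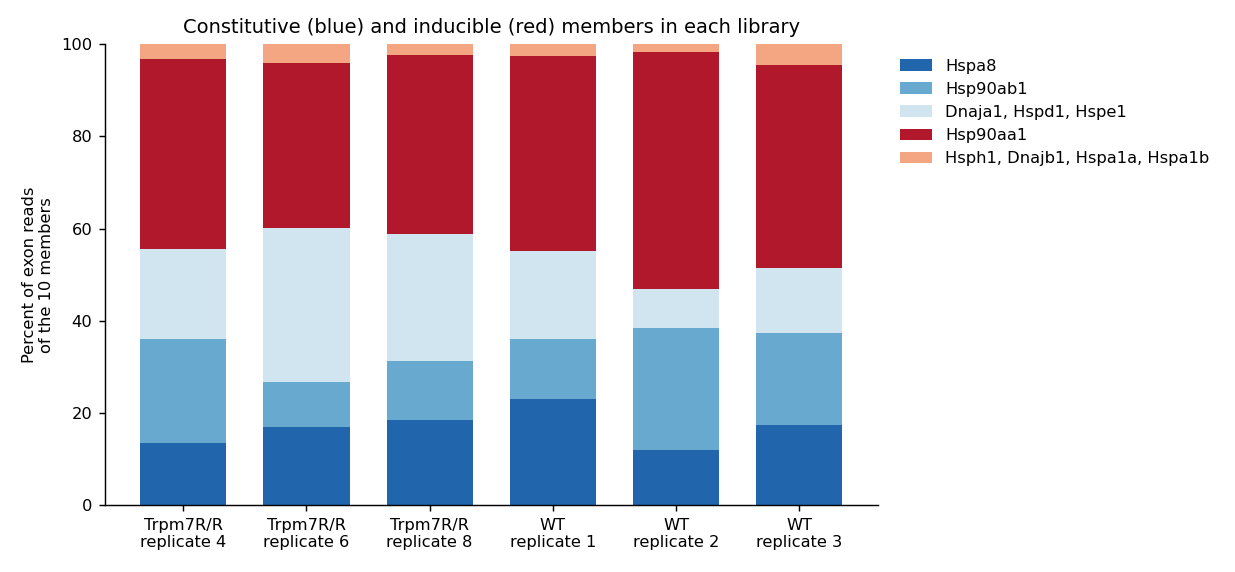
Percent of the exon reads of the 10 members (y axis, stacked bars) that each member or group of members held in each library, with the 3 Trpm7R/R libraries left of the 3 WT libraries, constitutive members in blue and inducible members in red. Hsp90aa1 held 35.7 to 41.2% in Trpm7R/R and 42.3 to 51.3% in WT, and the other inducible members at most 4.60% in any library.

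Reads not counted as unique fell mainly on the rare members. All exon reads of Hspa8, Hsp90ab1, Hsp90aa1, Hspd1, Hsph1 and Dnajb1 were uniquely mapped, and for Dnaja1 461 of 463 over the 6 libraries. This held although 9 annotated pseudogenes of GENCODE M21 matched the coding sequence of Hspa8 at 90% identity or more over at least 50% of its length, and 2 that of Hsp90aa1. For Hspe1 46 of 57 reads were unique, for Hspa1a 7 of 12 and for Hspa1b 5 of 9. The coding sequences of Hspa1a and Hspa1b were identical at 99.4% of aligned positions with an identical run of 638 bases, so the split of their reads between them is uncertain. Their summed exon reads were 0, 2 and 2 in Trpm7R/R and 2, 4 and 11 in WT. Hsp90aa1 and Hsp90ab1 were 75.6% identical, with no identical run above 33 bases. The genes of Hspd1 and Hspe1 lie head to head, and with the strand setting of the counting not stated, reads at their shared edge could have gone to either.

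The 3 abundant members were compared with genes of a like standing in the libraries. A total of 98 tested nuclear protein-coding genes averaged 5 times the background or more in exon reads and 1 exon-exon read or more per library. Both averages were taken over all 6 libraries, and the set was picked after the data had been seen. A gene could thus enter through 1 genotype alone, as Hspa8 did with 3.71 times in Trpm7R/R and 8.46 in WT. The shares and ranks below depend on this choice and describe this set only. Of the 98 genes 93, or 94.9%, had a negative log2 fold change, with a median of -1.54. In the same set 83.7% were lower at an unadjusted p below 0.05 and 77.6% had every Trpm7R/R library below every WT library. All 3 abundant members were lower at that unadjusted p, and Hspa8 and Hsp90aa1 also without overlap, so these calls were common among genes of this set. Ordered from the lowest, Hsp90ab1 was at rank 45, Hsp90aa1 at 62 and Hspa8 at 76 of 98. The fold changes of the 3 chaperone genes thus lay in the middle and upper part of that set. By the shape of their profile over the 6 libraries, the genes nearest to Hsp90aa1 among 11668 were Eif2s2, a subunit of a translation initiation factor, at a root mean square difference of 0.0916 on the log2 scale, and the ribosomal protein genes Rpl11 (0.128), Rpl37 (0.131), Rps12 (0.142) and Rps19 (0.147).

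The sign of the fold changes depended on the scaling of the libraries, which moves all genes alike. Scaled to the summed reads of 77 ribosomal protein genes, all genes tested had a median log2 fold change of 1.34, and the values were 0.23 ± 0.50 for Hspa8, 0.062 ± 0.50 for Hsp90aa1 and -0.09 ± 0.50 for Hsp90ab1 (SE). Scaled to exon-exon reads, an alternative chosen after seeing the data, that median moved to 1.62 and the values were 0.51 ± 0.52, 0.29 ± 0.52 and 0.11 ± 0.52 (SE) for the same genes in that order, all within their standard errors of 0. Under both scalings the 3 genes stayed below the median of all genes, and Dnaja1 stood at 1.52 and 1.81. Less RNA of these genes and less spliced RNA in all cannot be told apart in these counts. An adjusted p of at most 0.05 was reached for Hspa8 and Hsp90aa1 with the Wald test of DESeq2 (adjusted p 0.0499 and 0.0228, against 0.0928 for Hsp90ab1) and for Hsp90ab1 with edgeR's quasi-likelihood test over all genes with at least 1 read (adjusted p 0.0232). Without Trpm7R/R replicate 4, all 3 had an adjusted p of 0.0298 to 0.0374 in edgeR's quasi-likelihood test. In that fit 151 of 12660 genes were called lower and 45 higher at an adjusted p of 0.05 and 2-fold. It leaves only Trpm7R/R replicates 6 and 8, which nearly lack Y-linked reads, against WT libraries that have them. Genotype and sex chromosomes cannot be told apart there. Over the 21 alternatives the adjusted p ran between 0.024 and 1.00 for Hspa8, 0.020 and 1.00 for Hsp90aa1 and 0.0232 and 1.00 for Hsp90ab1 (edgeR, DESeq2 and limma-voom).

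**Figure D5:**
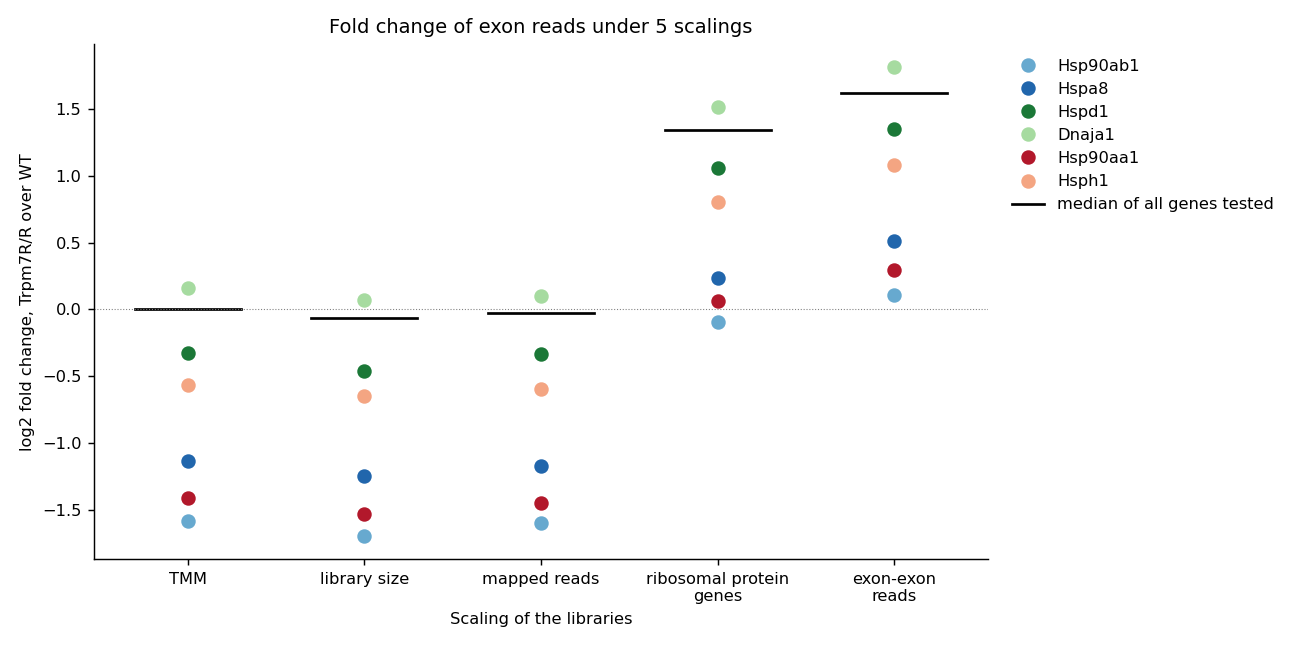
Log2 fold change of exon reads, Trpm7R/R over WT (y axis), of the 6 tested members under 5 scalings of the libraries (x axis), with the median of all genes tested as a black line. Under TMM, library size and mapped reads the median is near 0 and Hsp90ab1, Hsp90aa1 and Hspa8 are below -1, and under ribosomal protein genes and exon-exon reads the median is 1.34 and 1.62 and the same 3 genes lie between -0.09 and 0.51.

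Genes that work with the members were read from lists and described by counts, beside which 49.3% of all genes tested had a negative log2 fold change and 4.57% a lower level at an unadjusted p under 0.05. The median density of the tested genes of a list ran between 0.812 and 3.38 times the intronic background. Of 22 cochaperones of HSP70 and HSP90, 15 passed the filter, 13 of them with a negative log2 fold change, 4 lower and 0 higher at an unadjusted p under 0.05, with a median of -0.36. The 4 were Ptges3, the HSP90 cochaperone p23, Bag1 and Bag4, nucleotide exchange factors of HSP70, and Fkbp4, an HSP90-bound peptidyl-prolyl isomerase. Ptges3 had 7, 3 and 13 exon reads in Trpm7R/R and 52, 26 and 21 in WT, or 0.742 times the background in Trpm7R/R and 3.34 in WT, without overlap (log2 fold change -2.07, adjusted p 0.146 by edgeR's quasi-likelihood test). Its exon-exon reads numbered only 2 in Trpm7R/R and 2 in WT, against 16 in Trpm7R/R and 50 in WT for Bag1. Bag1, at 2.68 times the background in Trpm7R/R and 6.61 in WT, had 16, 18 and 13 exon reads in Trpm7R/R and 35, 62 and 21 in WT (log2 fold change -1.25, adjusted p 0.473 by edgeR). No cochaperone passed the adjusted threshold.

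Of 15 other J-domain proteins outside the ER 10 were tested, 9 with a negative log2 fold change and 2 lower at an unadjusted p under 0.05, Dnajc5 (-1.21) and Dnaja2 (-1.15). The tested genes of this list had a median of 0.957 times the background and 0 lay above 2 times. Dnajc5 was at 0.212 times in Trpm7R/R and 0.521 in WT and Dnaja2 at 0.729 in Trpm7R/R and 1.63 in WT, with 1 exon-exon read each over the 6 libraries. Of 8 other HSP70 and HSP110 genes 5 were tested, 2 with a negative value and 1 lower at an unadjusted p under 0.05, Hspa9, the mitochondrial HSP70 (log2 fold change -0.95, adjusted p 0.775 by edgeR), which had 9, 11 and 17 exon reads in Trpm7R/R and 25, 31 and 18 in WT, or 0.642 times the background in Trpm7R/R and 1.30 in WT. Hspa4l, an HSP110 relative, had a log2 fold change of 0.15. The TRiC chaperonin folds actin and tubulin, and prefoldin delivers them to it. Of 15 such genes 9 were tested, 8 with a negative value and 1 lower at an unadjusted p under 0.05, the prefoldin subunit Pfdn5, with 32, 19 and 17 exon reads in Trpm7R/R and 51, 121 and 63 in WT (log2 fold change -1.73, adjusted p 0.108 by edgeR).

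Of 14 heat shock factors and small heat shock proteins only 3 passed the filter, all heat shock factors, and 0 were lower or higher at an unadjusted p under 0.05. Hsf1, the main activator of the inducible genes, had 148, 60 and 84 exon reads in Trpm7R/R and 74, 124 and 108 in WT, with overlap and a log2 fold change of -0.037 ± 0.34 (SE). It had 1 exon-exon read in all 6 libraries together, so spliced Hsf1 RNA was hardly sampled. Of 16 mitochondrial chaperones and proteases 10 were tested, 6 with a negative value and 1, again Hspa9, lower at an unadjusted p under 0.05, with a median of -0.14.

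Among the chaperone lists, that of the ER had the most genes lower at an unadjusted p under 0.05. All 11 tested of 14 had a negative log2 fold change with a median of -1.26, and 9 passed that threshold. This list also had the highest median density of the lists, 3.38 times the intronic background. Of the 98 genes at 5 times the background or more described above, 83.7% were lower at that threshold, with a median of -1.54. Such calls were thus common among well covered genes. Hsp90b1, the HSP90 of the ER, had 32, 24 and 35 exon reads in Trpm7R/R and 134, 172 and 101 in WT and was lower in Trpm7R/R, with a log2 fold change of -2.12 ± 0.31 (SE) with an adjusted p of 0.0412 by edgeR's quasi-likelihood test. Hspa5, the HSP70 of the ER, had 47, 21 and 42 in Trpm7R/R and 139, 133 and 100 in WT (log2 fold change -1.73, adjusted p 0.0518 by edgeR). Exon-exon reads numbered 36 in Trpm7R/R and 190 in WT for Hsp90b1, but only 4 in Trpm7R/R and 5 in WT for Hspa5. The cytosolic counterparts, Hsp90aa1, Hsp90ab1 and Hspa8, had values of -1.41, -1.58 and -1.14, and the difference between compartments was not tested. Of 17 immediate early genes, which cell isolation and handling induce together with heat shock genes in many tissues, 7 were tested, 2 with a negative value and 0 lower or higher at an unadjusted p under 0.05, among them Egr1 (log2 fold change -0.24) and Klf6 (0.34).

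Markers of other cells that islet preparations hold were read beside these results. Summed CPM was 10.5 to 14.3 in Trpm7R/R and 11.2 to 16.9 in WT for acinar markers, and 4.94 to 7.32 in Trpm7R/R and 6.21 to 12.6 in WT for duct markers. Endothelial markers summed to 12.1 to 22.9 in Trpm7R/R and 11.1 to 18.0 in WT, and those of macrophages and leukocytes to 6.22 to 14.8 in Trpm7R/R and 9.22 to 14.0 in WT. Stellate cell and fibroblast markers summed to 15.6 to 16.7 in Trpm7R/R and 16.7 to 21.5 in WT. All but the stellate cell list overlapped between genotypes, and the endocrine list, given above, did not. Of the tested genes of these lists, 2 duct and 1 stellate cell gene passed an unadjusted p of 0.05 on the lower side and 0 on the higher side. The part of these cells in the reads of the members was not tested. In the libraries with Y-linked reads, Trpm7R/R replicate 4 and the 3 WT libraries, the log2 fold change was -1.26 for Hspa8, -1.20 for Hsp90aa1 and -0.92 for Hsp90ab1, and -0.80 for Dnaja1.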

How the data were processed

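Whole islets of 3 Trpm7R/R and 3 WT mice were measured by RNA-seq with low-input chemistry. The authors deposited raw counts of reads per gene (total and unique, in exons, introns and across junctions) and RPKM values, which relate exon reads to exon length and mapped reads. They also deposited gene and exon lengths, another measure used here for densities, and tables of their own fold changes and p-values, which were not used. The submitters' notes name mm10, but the tables place genes elsewhere than GRCm38 does, so no such position is printed. Aligner and counting tool were not given in the sources used here. Total exon reads were tested with edgeR 4.0.16 in R 4.3.3 (quasi-likelihood, TMM, filterByExpr with a minimum count of 10, genotype as the only term) over 11674 genes with Benjamini-Hochberg adjustment, and exon-exon and intron reads likewise. DESeq2 1.42.0, limma-voom of limma 3.58.1, other scalings, filters and read classes and leaving out each library were alternatives. Scripts were tested on simulated data. Named genes were the 10 members, up to 4 tested genes of smallest p per list, Hsf1, 5 genes nearest to Hsp90aa1 and Trpm7. The members and lists were chosen with earlier results of these data known. Intervals and floors cover counting error only. Coding identity was taken from the longest reading frames of GENCODE M21 transcripts, with pseudogenes found by blastn 2.17.0.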

Additional observations from a re-analysis of the deposited data

How the results depend on the processing

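Of the log2 fold changes of the 6 tested members under the alternatives, 102 kept direction and side of the threshold, 10 passed the threshold where they had not, and 14 changed sign, 1 of which (Hspd1 under exon-exon scaling, adjusted p 0.0257 by edgeR) also passed the threshold. Under ribosomal protein scaling the signs of Hspd1 (1.06), Hsph1 (0.80), Hspa8 (0.23) and Hsp90aa1 (0.062) were turned. Under exon-exon scaling, chosen after seeing the data, so were Hspd1 (1.35), Hsph1 (1.08), Hspa8 (0.51), Hsp90aa1 (0.29) and Hsp90ab1 (0.11). With total gene reads Hsph1 was at 0.23, and with only the libraries with Y-linked reads, also chosen after seeing the data, in which the lone Trpm7R/R library is assumed to vary like the WT libraries, Hspd1 was at 0.28 and Dnaja1 at -0.80. Leaving out each library in turn gave Dnaja1 -0.049 to 0.48 and Hspd1 -0.81 to 0.026.

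Genes called lower at an adjusted p of 0.05 and 2-fold numbered 3 and higher 0. Lower calls were 30 with upper quartile scaling, 23 with library size scaling, 46 with mapped reads, 6 with ribosomal protein genes, 131 with all genes with at least 1 count, 66 with at least 10 counts in every library of a genotype, 0 with total gene reads, 104 with DESeq2's Wald test, 161 with edgeR's likelihood ratio test, 30 without X and Y genes and 8 with only the libraries with Y-linked reads. Higher calls were 7251 with ribosomal protein genes, 9417 with exon-exon reads, 10 with all genes with at least 1 count and 1 with the likelihood ratio test. Members with an adjusted p of at most 0.05 numbered 1, Dnaja1, which was higher, with ribosomal protein scaling and 2, both higher, with exon-exon scaling. They numbered 1 with all genes with at least 1 count, 2 with the Wald test and 2 with the likelihood ratio test, all of them lower. Members lower at an unadjusted p under 0.05 numbered 0 under ribosomal protein scaling and 0 under exon-exon scaling. The median of constitutive members was -0.85 with library size scaling, 0.64 with ribosomal protein genes, -1.05 with all genes with at least 1 count, -1.15 with total gene reads and 0.93 with exon-exon reads, and that of inducible members 0.43 with ribosomal protein genes, -0.55 with total gene reads and 0.69 with exon-exon reads.

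Leaving out each library in turn gave 0 to 151 lower and 0 to 45 higher calls, 0 to 3 members with an adjusted p of at most 0.05, 2 to 4 lower at an unadjusted p under 0.05, and medians of -1.25 to -0.43 for constitutive and -1.08 to -0.65 for inducible members. The 3 members, like the 151 lower and 45 higher calls, were reached without Trpm7R/R replicate 4. The Trpm7R/R libraries left in that fit, replicates 6 and 8, nearly lack Y-linked reads. No paired analysis was possible because the genotypes share no replicate numbers. With a background from olfactory and vomeronasal receptor exons the density of Hspa8 was 2.57 times in Trpm7R/R and 5.66 in WT, and with one from genes whose introns sum to 10000 bases or more 4.50 in Trpm7R/R and 10.1 in WT. Except where the construction of an alternative shows it, the cause of these shifts was not tested. Depth limits Dnajb1, Hspa1a, Hspa1b and Hspe1, none of which entered the main fit. In some alternatives, such as total gene reads, 7 members were tested. Only the fit over all genes with at least 1 count tested all 10 members. In that edgeR fit 4, Hspa1a among them, had an unadjusted p under 0.05 on the lower side in the quasi-likelihood test. That of Hspa1a rests on 1 read in Trpm7R/R and 11 in WT. For exon reads the share of all genes at this threshold was computed in the main fit only. No share over the 31854 genes of that fit stands beside the count, and nothing is read from it.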
